A study of Mus musculus with 57 samples.

Results

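The genes described here are protein-coding mouse genes without a descriptive name whose RNA first reached a clear level in the early 2-cell embryo. They were picked from the deposited expression table by symbol and by level. The symbol had to be Gm plus a number or end in Rik, the placeholder names of predicted genes, and the GENCODE M21 annotation had to class the gene as protein-coding. The mean level had to be under 1 FPKM (sequenced fragments scaled to transcript length and to the mapped fragments of the library) in MII oocytes and in zygotes, and at least 3 FPKM in the E2-cell, the early 2-cell stage. Of the 59119 rows of the table, 2086 were coding genes with such a symbol, and 81 of those met the level rule. Without the condition on the symbol, 143 coding genes met it. The MII, zygote and E2-cell values chose the genes, so they are given as a description only.

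Total RNA was sequenced from mouse oocytes and preimplantation embryos as 57 samples in 18 groups, which fill 43 columns of the table. Wild type C57BL/6 oocytes and embryos (MII, Zygote, E2-cell, L2-cell or late 2-cell, 4-cell, 8-cell, Morula and Blastocyst) have 2 columns per group, as have wild type BDF1 embryos at 14, 17 and 20 hours after fertilization. In BDF1 embryos, 4 samples of LncR-3363 knockdown named KD-1cell and 1 named KD-2cell stand beside 4 wild type controls (Ctrl). Also in BDF1, MT2Mm knockout embryos stand beside wild type controls at the early 2-cell (Early2c) and late 1-cell (Late1c) stage, with 3 samples per group and an age of 6 to 8 weeks in the labels. LncR-3363 is a long noncoding RNA, knocked down with an antisense oligonucleotide at 20 uM. MT2Mm is the long terminal repeat in which transcripts of the retroviral element MERVL begin, and it was targeted with guide RNA (150 ng/uL) and Cas9 mRNA (100 ng/uL). Reagents went into MII oocytes before fertilization in vitro, and what the controls were injected with is not stated. Cas9 cuts in each embryo separately, so a knockout sample is a pool of individually edited embryos, and the share of edited alleles was not analysed here. Beyond the names KD-1cell and KD-2cell, the labels do not give the stage at which knockdown embryos were collected. In the table the knockdown columns have a different short name, and that it stands for LncR-3363 was taken from how the groups are built. No row was identified as LncR-3363 or as MT2Mm, so neither target was checked. The labels do not say that samples of a group came from separate collections, so p-values measure the spread between these samples, which may be technical.

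The mouse embryonic genome is switched on in a minor wave in the 1-cell embryo and a major wave in the 2-cell embryo, while RNA stored by the oocyte is degraded. Many transcripts of that window come from gene families in tandem copies, from retrocopies of housekeeping genes, and from transcripts that begin in MERVL repeats. The transcription factor DUX, whose gene is Duxf3 in the table, binds such repeats and early 2-cell genes.

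The 81 genes were mostly copies of one another. By coding sequence they fell into 17 families, and 79 of them shared a family with another of the 81. At least 1 near-identical coding gene (95% identity over 80% of the length) existed for 74 of them. A single coding exon, the form of a retrocopy, was present in 57 of the 81 (70.4%), against 16.3% of all coding genes. The annotation tags 10 of them (12.3%) as retrogenes, against 0.4% of all coding genes. On the genome, 77 lay within 1 Mb of another of the 81, with 17 genes on chromosome 10, 15 on chromosome 12, 13 on chromosome 4 and 10 on chromosome 5. Reads from copies this alike can come from any of them, and the rule by which they were divided is not stated in the labels, so families rather than single copies are the separate observations.

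By their nearest named relative, 27 of the 81 resembled genes of mRNA splicing and export. These were 13 copies related to Alyref2, an adaptor for mRNA export (the Gm4340 family, chromosome 10), and 6 related to Cwc22, a spliceosome protein needed for exon junction complexes (the Gm13694 family, chr2:83955693-83987235). A further 4 were related to Cdc5l, a core spliceosome protein (the Gm9048 family, chr10:118335423-118354105), 2 to Eif4a3, the helicase of the exon junction complex (Gm5580 and Gm8994, chromosome 6), and 2 to Ubl5, a ubiquitin-like splicing protein (Gm2001 and Gm16381, chromosome 12). The Gm8332 family, 13 genes at chr12:87494721-88274500, was 93.7% to 95.1% identical in coding sequence to Eif1a, a translation initiation factor. Another 20 belonged to the Pramel and Pramef leucine-rich repeat genes, among them B020004J07Rik, which RefSeq calls Pramel17. The remaining named relatives were Tdpoz genes, which encode proteins with a TRAF and a POZ domain (5 genes), Tcstv genes of the 2-cell embryo (3 genes) and Mplkip (1 gene, Gm7102). For 12 genes no named relative was found. RefSeq has an entry for 76 of the 81 and gives 22 of them a descriptive name.

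Coding sequences show how close the copies were to their relatives. In the pairs below, 90 coding bases of GRCm38 are given 5′ to 3′, and capitals mark the bases that differ within a pair. The 4 pairs were chosen, after values were seen, because the 2 genes of each had different expression in the results that follow. Gm13694 (chr2:83979023-83979112, plus strand, single coding exon) is shown from coding base 91 and Cwc22 from coding base 88, with 2 differences.
Gm13694: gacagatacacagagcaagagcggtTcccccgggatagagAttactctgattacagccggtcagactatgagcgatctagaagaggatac
Cwc22: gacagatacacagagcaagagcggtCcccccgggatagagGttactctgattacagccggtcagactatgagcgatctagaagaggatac
Gm9048 (chr10:118348590-118348679, minus strand, single coding exon) and Cdc5l are shown from the first coding base, with 3 differences.
Gm9048: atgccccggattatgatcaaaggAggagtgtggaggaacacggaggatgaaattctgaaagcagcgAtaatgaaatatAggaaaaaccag
Cdc5l: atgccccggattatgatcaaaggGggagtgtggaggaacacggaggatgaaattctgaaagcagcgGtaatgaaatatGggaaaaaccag
Gm5580 (chr6:116551164-116551253, plus strand, single coding exon) and Eif4a3 differed at 9 of the first 90 coding bases.
Gm5580: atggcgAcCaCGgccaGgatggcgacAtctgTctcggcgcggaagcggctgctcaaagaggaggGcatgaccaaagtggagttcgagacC
Eif4a3: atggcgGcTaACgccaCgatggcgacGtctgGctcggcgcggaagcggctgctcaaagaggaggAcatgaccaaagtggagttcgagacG
Gm4340 (chr10:104195397-104195486, plus strand) and Gm4301 (chr10:100335697-100335786, plus strand) stand for the 2 clusters of Alyref-like copies, and differed at 5 of the first 90 coding bases.
Gm4340: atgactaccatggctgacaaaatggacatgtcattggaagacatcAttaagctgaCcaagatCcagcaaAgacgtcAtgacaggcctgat
Gm4301: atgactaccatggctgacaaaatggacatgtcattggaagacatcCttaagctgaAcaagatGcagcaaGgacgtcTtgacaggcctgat

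Some genes of different families also shared the sequence in front of them. RefSeq promoters of GRCm38.p6, from 250 bases before to 50 bases after the annotated start, were at hand for 45 of the 81. The stretch in front of Gm4340 recurred, at 75% identity or more over at least 200 bases, in 9 of those 45 (20%) and in 26 of all 27025 genes of the promoter table (0.0962%). The 9 were 6 copies of the Gm4340 cluster (100% identity), the Pramel gene B020004J07Rik (87.9%), the Eif4a3-like Gm8994 (80.7%) and the Pramef8-related Gm12789 (75.1%). They belong to 4 coding families. The search started from Gm4340 and was chosen after the data were seen, and whether the stretch belongs to a known repeat class was not analysed here. The 250 bases before the start of 3 of these genes follow, and capitals mark runs of 12 or more bases that all 3 hold, 138 bases in each. The promoter of Gm4301 held none of those runs and is shown for contrast. The sequences lie at chr10:104193792-104194041 (Gm4340, plus strand), chr4:101844023-101844272 (B020004J07Rik, minus strand), chr6:136327289-136327538 (Gm8994, plus strand) and chr10:100335426-100335675 (Gm4301, plus strand).
Gm4340: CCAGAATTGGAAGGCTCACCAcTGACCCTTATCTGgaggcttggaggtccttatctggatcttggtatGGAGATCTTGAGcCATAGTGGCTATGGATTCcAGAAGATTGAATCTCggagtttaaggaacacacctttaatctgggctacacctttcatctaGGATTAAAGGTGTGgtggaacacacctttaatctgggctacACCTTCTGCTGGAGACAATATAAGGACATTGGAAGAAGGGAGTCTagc
B020004J07Rik: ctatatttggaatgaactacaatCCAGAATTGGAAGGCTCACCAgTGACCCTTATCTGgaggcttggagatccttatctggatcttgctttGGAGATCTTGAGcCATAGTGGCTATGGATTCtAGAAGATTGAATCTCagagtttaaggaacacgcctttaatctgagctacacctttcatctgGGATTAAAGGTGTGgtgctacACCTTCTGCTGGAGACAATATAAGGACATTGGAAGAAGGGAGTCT
Gm8994: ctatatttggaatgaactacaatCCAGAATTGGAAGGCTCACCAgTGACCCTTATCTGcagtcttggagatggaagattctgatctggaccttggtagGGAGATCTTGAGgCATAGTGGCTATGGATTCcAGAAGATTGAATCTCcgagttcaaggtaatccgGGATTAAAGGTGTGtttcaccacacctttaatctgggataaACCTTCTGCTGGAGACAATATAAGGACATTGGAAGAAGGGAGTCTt
Gm4301: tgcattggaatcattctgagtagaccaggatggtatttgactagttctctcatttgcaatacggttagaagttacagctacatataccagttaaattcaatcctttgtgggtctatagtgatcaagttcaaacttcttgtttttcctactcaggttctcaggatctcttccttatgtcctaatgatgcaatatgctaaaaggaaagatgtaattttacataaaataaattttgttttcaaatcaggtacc

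A set of 37 promoters from 11 families, whose RefSeq start lay within 50 bases of the GENCODE start, was searched on both strands for 4 motifs. The Dux motif (TGATT, 2 bases of any kind, ATCA) was in 0 of the 37 and in 0.207% of all 32851 promoters. The paired-like homeodomain core GGATTA, which falls within capitals in the 3 related promoters above, was in 16 of 37 (43.2%) and in 7 families, against 7.06% of all promoters, and 8 of the 16 held the shared stretch. TATAAA was in 10 (27.0%), from 3 families, against 13.6% of all promoters, and CCAAT in 27 (73.0%), from 9 families, against 37.4%. Copies of a family can share a promoter, so these are not shares of separate promoters. The 37 promoters had a median of 2 CpG dinucleotides and 43.3% G and C, against 7 and 52.7% over all promoters. These matches describe the letters in these windows and nothing about binding.

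Across the stage series, the summed level of the 81 genes averaged 12.7 FPKM in MII oocytes, 12.8 in zygotes, 1520 in E2-cell, 1043 in L2-cell, 404.7 in 4-cell, 141.6 in 8-cell, 50.2 in morula and 25.65 in blastocyst samples (n = 2 each). From the E2-cell on, no stage overlapped with the next, and of these stages the 8-cell had samples farthest apart in proportion, at 101.3 and 181.8 FPKM. The 81 genes made up 0.330% of the table's summed FPKM in the E2-cell. At 1 FPKM or more stood all 81 in both E2-cell samples, 63 to 65 in the L2-cell, 22 to 52 in the 8-cell and 9 in the blastocyst. In bulk samples, fewer cells that express a gene and less RNA per cell cannot be told apart. The E2-cell, L2-cell and 4-cell columns carry different tags in the table's header, so for them the tag and the stage cannot be told apart.

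**Figure D1:**
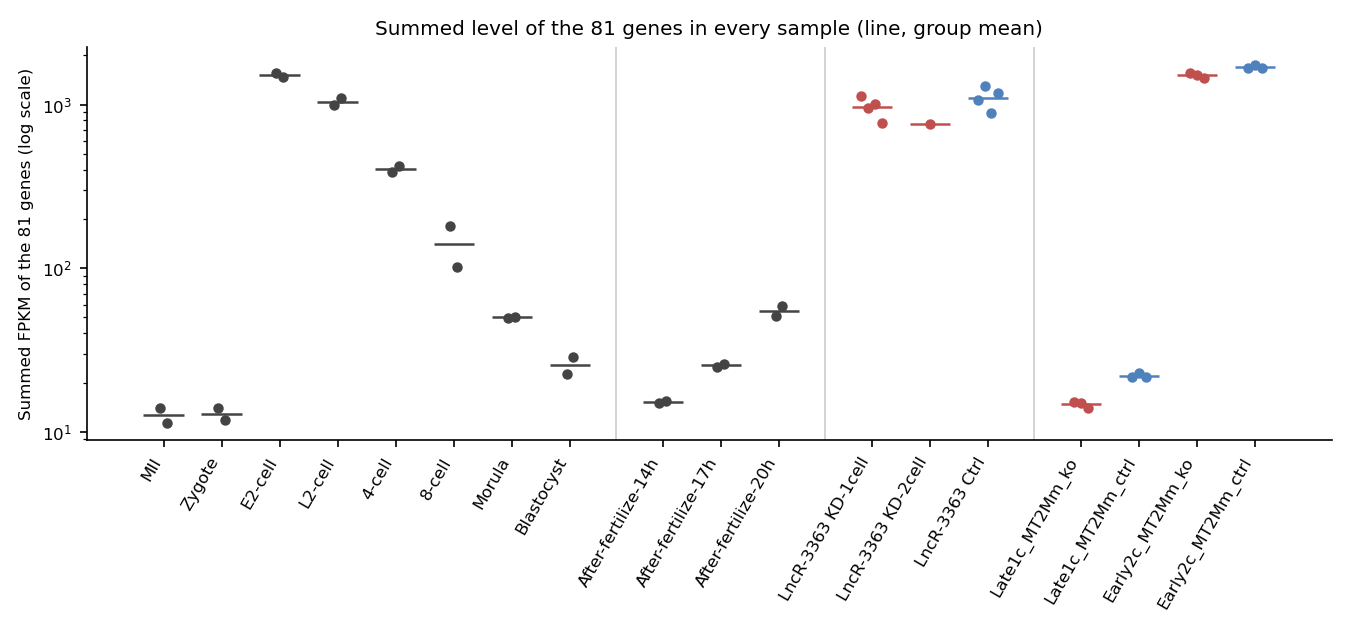
Summed FPKM of the 81 genes on a log axis, with 1 point per sample and a line for the group mean, for the stage series, the time series, and the knockdown and knockout groups with their controls. The level averaged 12.7 FPKM in MII oocytes, 1520 in E2-cell and 25.65 in blastocyst samples, and in the time series 15.3 at 14 hours and 55.0 at 20 hours.

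The level rule left close neighbours on both sides. Just inside the limit of 1 FPKM stood Gm5891, with 0.877 FPKM in MII oocytes and 0.959 in zygotes, and Gm11239, with 0.793 in MII oocytes and 0.950 in zygotes. Just outside it stood Gm11758 (1.24 FPKM in MII oocytes), Gm12355 (1.32 in MII oocytes), 3110040M04Rik (1.15 in zygotes) and D030056L22Rik (1.15 in zygotes). At the limit of 3 FPKM in the E2-cell, Gm7978 (3.07) and Gm9125 (3.68) were inside, while Gm21319 (2.99) and Gm9040 (2.68) were outside.

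The highest stage was the E2-cell for 59 genes, the L2-cell for 20 and the 4-cell for 2. Gm4340 had the highest E2-cell level, 120 and 103 FPKM, and stood at 21.4 and 25.5 in the L2-cell, 9.08 and 9.35 in the 4-cell, 5.78 and 1.03 in the 8-cell, and 0.210 and 0.0959 in the morula. Gm8332, the leading Eif1a-like gene, had 72.8 and 84.6 FPKM in the E2-cell, 51.8 and 66.3 in the L2-cell, 17.6 and 17.3 in the 4-cell, 6.96 and 1.78 in the 8-cell, and 0.409 and 0.737 in the morula. Neither gene's E2-cell values overlapped with its L2-cell values. Among the other genes with the highest E2-cell levels, Gm21304 (74.2 and 69.6 FPKM) and Gm20765 (49.5 and 42.5) are Alyref-like. Gm5662 (50.8 and 49.8 FPKM), Gm2022 (42.9 and 42.6) and Gm4027 (41.3 and 37.0) are Eif1a-like, and Gm5580 (43.6 and 40.5) is Eif4a3-like.

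The families parted at the late 2-cell stage. Both L2-cell samples were below both E2-cell samples for 58 of the 81 genes and above them for 20, where 49% and 39.9% of all 14722 rows compared did so. The E2-cell values chose the genes, so nothing is read from those shares. The 4 genes of the Gm11232 family on chromosome 1 (chr1:151182537-151211072), which have no named relative, were nearly gone. Gm8947 of this group had 6.29 and 6.67 FPKM in the E2-cell, and 0.00903 and 0.0122 in the L2-cell. All 10 Pramel genes of the Gm7942 family were lower in the L2-cell too, at a median of 0.0451 of their E2-cell level. The 13 Alyref-like copies kept a median of 0.21 of it and the 13 Eif1a-like copies 0.824, with 9 of the Eif1a-like copies lower in both L2-cell samples and 3 higher.

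Other genes stood higher in the L2-cell. The Ubl5-like gene Gm2001 had 7.16 and 7.05 FPKM in the E2-cell and 72.0 and 71.0 in the L2-cell, the highest L2-cell level of the 81, although it lies inside the cluster of Eif1a-like genes on chromosome 12. The Tdpoz-like gene Gm10697, RefSeq's Tdpoz7, had 9.29 and 7.93 FPKM in the E2-cell, 34.1 and 36.1 in the L2-cell, 41.0 and 48.4 in the 4-cell, 26.4 and 23.1 in the 8-cell, and 6.64 and 6.12 in the morula. It was the highest of the 81 in the 4-cell, the 8-cell and the morula. Gm12789 had 3.92 and 5.02 FPKM in the E2-cell and 37.4 and 24.3 in the L2-cell. B020004J07Rik had 18.6 and 17.2 FPKM in the E2-cell, 28.1 and 33.0 in the L2-cell, 16.0 and 19.6 in the 4-cell, 6.47 and 3.45 in the 8-cell, and 1.54 and 1.35 in the morula. The other 2 genes of its family were lower in the L2-cell than in the E2-cell. The 6 Cwc22-like copies were each slightly higher in both L2-cell samples, at a median of 1.11 of their E2-cell level.

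**Figure D2:**
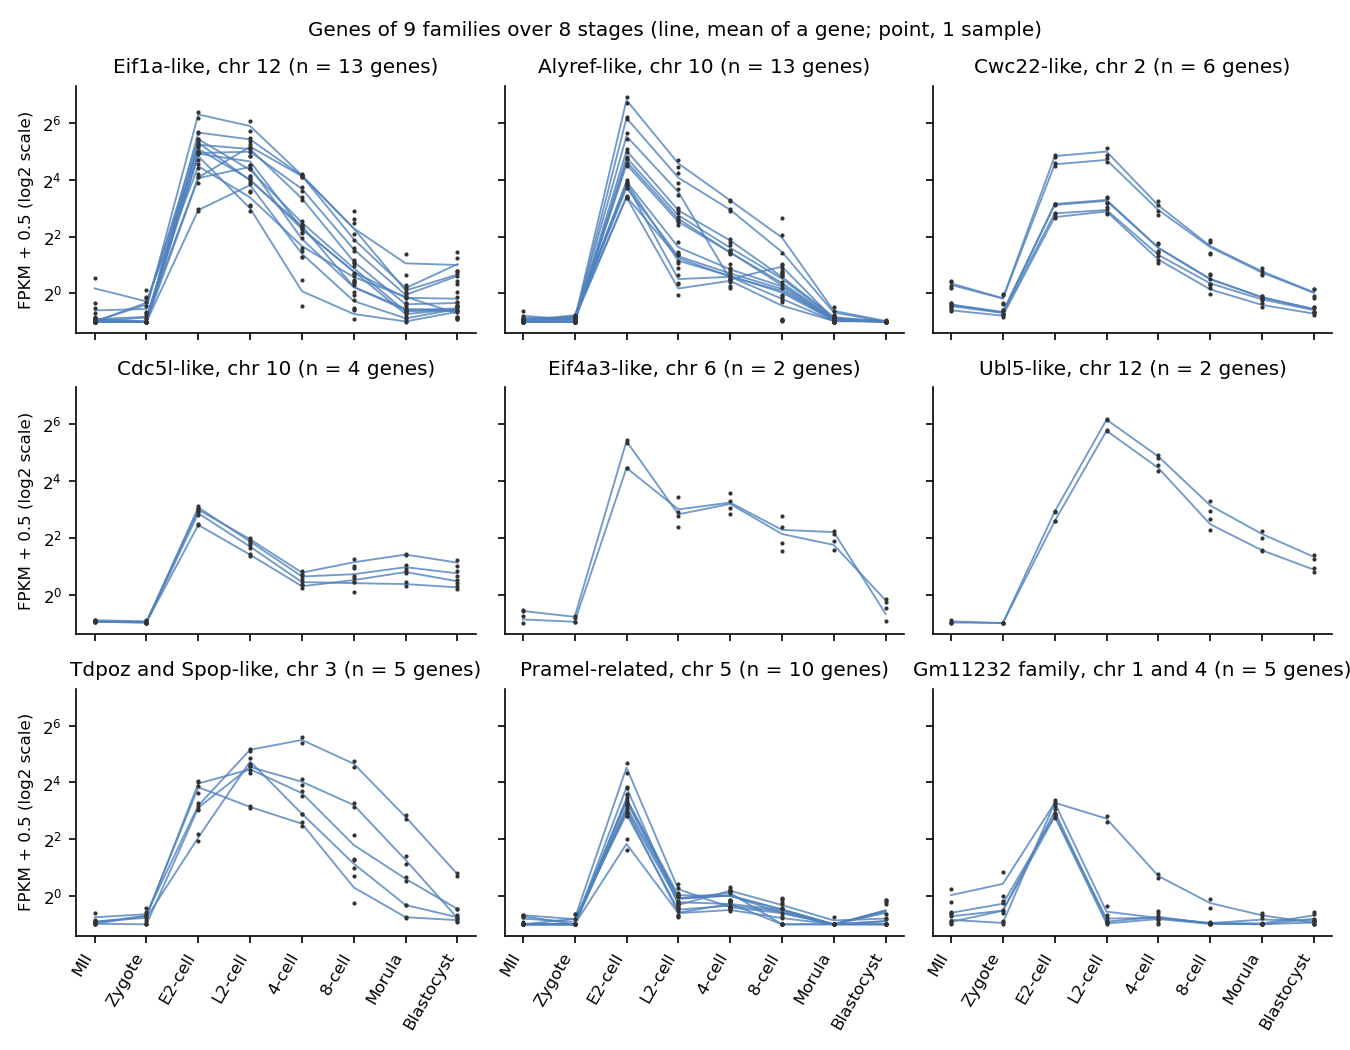
FPKM + 0.5 on a log2 axis over the 8 stages for genes of 9 families, with a line for the mean of each gene and a point for each sample. Gm4340 stands at 120 and 103 FPKM in the E2-cell and 21.4 and 25.5 in the L2-cell, while Gm2001 stands at 7.16 and 7.05 in the E2-cell and 72.0 and 71.0 in the L2-cell.

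From the L2-cell on, the genes were tested in samples the rule had not used. The test was limma on log2(FPKM + 0.5), over the 16034 rows with at least 1 FPKM in 2 samples, with Benjamini-Hochberg adjustment over all of them and a threshold of 0.05. Changes are on that log2 scale, which understates those of low genes, and their errors are standard errors (SE). It reached 64 of the 81, and the 17 left out include the 10 Gm7942 genes and the 4 chromosome 1 genes, which were already low. The 64 are those that kept a level, so their counts do not stand for all 81. A gene can pass the filter through its L2-cell values alone, and for such a gene the filter favours a fall. Gm13040 passed in this way, with 2.23 to 2.91 FPKM in the L2-cell and 0.85 to 0.922 in the 4-cell. From the L2-cell to the 4-cell 49 of the 64 fell and 2 rose, where 28.3% of all rows fell and 41.3% rose. The median change was -1.49 for the 64 and 0.20 for all rows. As the header tags of the L2-cell and 4-cell columns differ, the tag and this step cannot be told apart.

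The fall from the L2-cell to the 4-cell took in all 6 Cwc22-like, 12 of 13 Eif1a-like, all 5 Gm4513-family and all 3 Tcstv-like genes. The Alyref-like Gm20765 had 0.909 and 0.923 FPKM in the 4-cell, against 10.57 and 12.21 in the L2-cell (-3.07 ± 0.34 SE, limma adjusted p = 1.08e-04). The Eif1a-like Gm6803 had 0.233 and 0.875 in the 4-cell, against 7.90 and 7.02 in the L2-cell (-2.99 ± 0.30 SE, limma adjusted p = 6.19e-05). Neither gene's stages overlapped. Gm4513, a gene with no named relative, had 2.19 and 2.54 FPKM in the 4-cell, against 18.2 and 21.5 in the L2-cell (-2.82 ± 0.21 SE, limma adjusted p = 1.26e-05). The 2 that rose were the Pramef25-like Gm13119, with 11.2 and 13.2 FPKM in the 4-cell against 2.79 and 2.82 in the L2-cell (1.93 ± 0.17 SE, limma adjusted p = 2.75e-05), and Gm10697 (0.34 ± 0.11 SE, limma adjusted p = 0.0212). Gm4340 (-1.30, limma adjusted p = 0.0638) and B020004J07Rik (-0.76, limma adjusted p = 0.0528) were lower in both 4-cell samples and did not pass.

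The decline went on through cleavage. From the 4-cell to the 8-cell 45 of 64 fell and 0 rose by limma (31.7% and 22.4% of all rows), and 48 had an unadjusted p under 0.05. From the 8-cell to the morula 33 fell and 0 rose by limma (21.8% and 16.1%), and 41 had an unadjusted p under 0.05. That count was 50 without 8-cell replicate 2, 15 without Morula replicate 1, 13 without Morula replicate 2, 11 with the samples of this contrast alone and 20 without the filter on low values. From the morula to the blastocyst 18 fell and 1 rose (24.9% and 31.6%), and the share of falls was near that of all rows. The count was 32 with the samples of this contrast alone and 12 without Morula replicate 2. All 5 Tdpoz-like genes fell at each of the first 2 of these steps, and 4 of them at the last. Gm10697 changed by -0.84, -1.87 and -2.02 at the 3 steps (limma adjusted p = 5.09e-04, 5.18e-05 and 3.49e-06).

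The Eif4a3-like pair kept a level into the morula. Gm8994 had 0.222 and 0.0293 FPKM in the blastocyst, against 3.95 and 4.26 in the morula (-2.90 ± 0.48 SE, limma adjusted p = 0.00128). Gm5580 had 0.401 and 0.342 in the blastocyst, against 3.25 and 2.48 in the morula (-1.94 ± 0.20 SE, limma adjusted p = 1.12e-04). Neither overlapped between these stages. Of the 4 Cdc5l-like copies, limma called 0 from the 4-cell to the 8-cell and 0 from the 8-cell to the morula, with an unadjusted p under 0.05 for 1 copy at each step. Gm9048 had 1.12 and 0.995 FPKM in the 4-cell, 1.43 and 0.869 in the 8-cell and 1.37 and 1.54 in the morula. Cdc5l, 97.6% identical to Gm9048 in coding sequence, rose over these steps, and whether its reads were counted here was not tested. The one gene that rose in the blastocyst, the Pramel gene Gm12794, was low at both stages, with 0.471 and 0.708 FPKM against 0.189 and 0 in the morula (0.88 ± 0.25 SE, limma adjusted p = 0.0179).

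Several of the named relatives took another course. Cdc5l averaged 3.69 FPKM in the E2-cell, 19.6 in the L2-cell and 206 in the morula, and rose at each step from the L2-cell to the morula (1.48, 1.15 and 0.73, limma adjusted p = 1.17e-06, 2.67e-05 and 1.90e-04). Eif1a averaged 2.37 FPKM in the E2-cell and 16.9 in the L2-cell and rose by 1.52 to the 4-cell (limma adjusted p = 3.47e-07), where 12 of its 13 copies fell. Eif4a3 averaged 25.9 FPKM in the E2-cell and 83.8 in the L2-cell, where Gm5580 stood at 43.6 and 40.5 in the E2-cell and 6.29 and 6.95 in the L2-cell. Alyref2 was at 0.573 and 0.586 FPKM in the E2-cell, when Gm4340 was highest, and at 12.6 and 14 in the L2-cell. Alyref2 (-1.85, limma adjusted p = 3.91e-05), Tcstv3 (-2.82, limma adjusted p = 1.84e-06) and Tcstv1 (-1.84, limma adjusted p = 5.01e-04) fell from the L2-cell to the 4-cell, as copies of theirs did.

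The hours after fertilization show which of these genes reached a measurable level early. In BDF1 embryos the summed level averaged 15.3 FPKM at 14 hours, 25.5 at 17 hours and 55.0 at 20 hours (n = 2 each), and the times did not overlap. With the same test, 16 of the 81 passed the filter of 1 FPKM in 2 samples, among them the 4 chromosome 1 genes and 4 Alyref-like genes, and 0 of the 13 Eif1a-like genes. From 14 to 17 hours 8 of the 16 rose and 0 fell (20.5% and 16.5% of 12834 rows), which were those 8 genes. From 17 to 20 hours 6 rose and 0 fell (5.13% and 14.5%). Without the filter on low values 3 were called at the first step and 25 at the second, of which 4 were among these 6. Most of the 16 passed through their later values, which favours a rise, so the counts are not shares of the 81. With 1 column left out, 2 to 4 were called at the first step: 2 without the 14-hour replicate 1, 4 without replicate 2, 2 without the 17-hour replicate 1 and 3 without replicate 2. The 17-hour columns carry another word in the header than those at 14 and 20 hours, so this and the time cannot be told apart.

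At 17 hours the 4 chromosome 1 genes had the highest mean levels of the 81. Gm11239, which has no named relative, overlapped with Gm8947 at 17 hours, at 1.07 to 1.25 FPKM. It was already at 1.17 to 1.35 FPKM at 14 hours. Gm47996 had 0.601 and 1.25 FPKM at 14 hours, 2.33 and 2.32 at 17 hours, and 3.02 and 3.10 at 20 hours. Its first step passed (1.03 ± 0.21 SE, limma adjusted p = 0.0116) and its second did not (0.33, limma adjusted p = 0.298). Gm8947 had 0.349 and 0.485 FPKM at 14 hours, 1.177 and 1.338 at 17 hours, and 2.15 and 2.75 at 20 hours, and both steps passed (limma adjusted p = 0.00510 and 0.0213). All 4 passed the first step and 1 of 4 the second. Gm4340 began lower, with 0.0471 and 0.0926 FPKM at 14 hours, 0.610 and 0.461 at 17 hours, and 3.05 and 4.17 at 20 hours. Its steps were 0.86 ± 0.17 (SE, limma adjusted p = 0.0118) and 1.98 ± 0.17 (SE). Gm4340 passed the filter only through its 20-hour values, which favours a rise from 17 to 20 hours, so that step is given as a description. Its relatives Gm21304, Gm20765 and Gm4303 rose at both steps too. B020004J07Rik was at 0 to 0.310 FPKM at all 3 times, and Gm12789 was listed at 0 in all 6 samples.

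Duxf3 averaged 0.332 FPKM at 14 hours, 2.69 at 17 hours and 5.79 at 20 hours, and passed at both steps (1.93 and 0.99, limma adjusted p = 6.51e-04 and 0.00633). Of 41 named 2-cell genes, such as the Zscan4, Usp17l and Tdpoz genes, 21 were tested. From 14 to 17 hours 6 of them rose and 1 fell, where 20.5% of all rows rose and 16.5% fell, and from 17 to 20 hours 5 rose and 0 fell, where 5.13% rose and 14.5% fell.

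**Figure D3:**
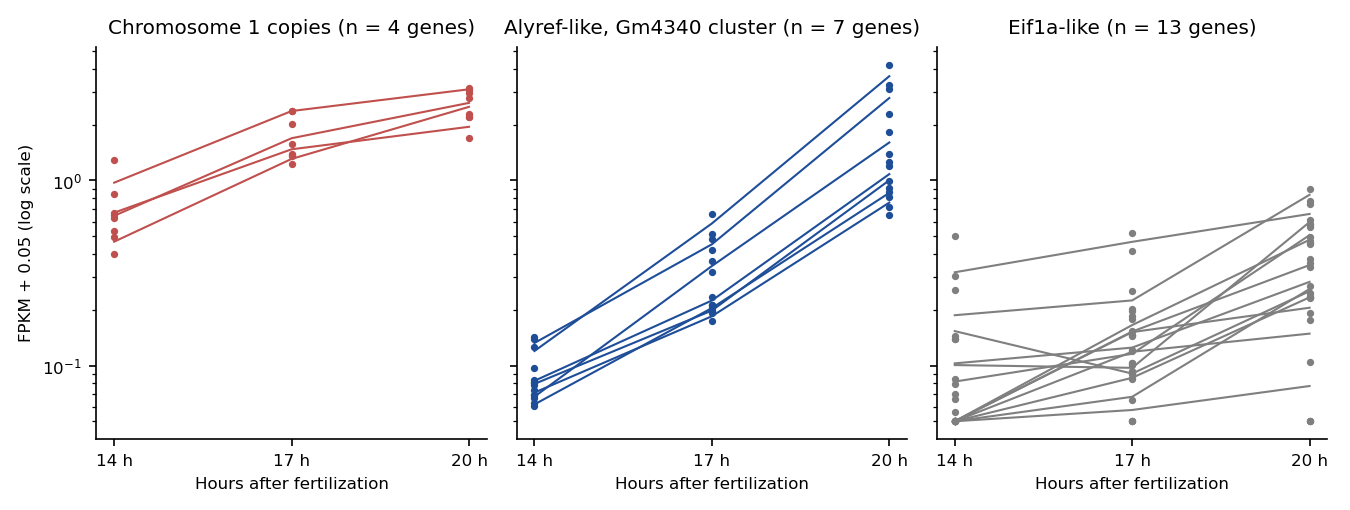
FPKM + 0.05 on a log axis at 14, 17 and 20 hours after fertilization, with 1 line per gene through its mean and 1 point per sample, for the chromosome 1 genes, the Gm4340 cluster and the Eif1a-like genes. At 17 hours the chromosome 1 gene Gm47996 stands at 2.33 and 2.32 FPKM and Gm4340 at 0.610 and 0.461.

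In the knockout experiment, 3 samples per group cover the step into the early 2-cell stage in BDF1 embryos. At Late1c 2 of the 81 genes reached 1 FPKM in knockout and 3 to 4 in control embryos. Nearly all therefore passed the filter through their Early2c values, and having been chosen for a rise at this stage they are given here as a description. In wild type controls all 81 genes were higher at Early2c than at Late1c (33.5% of 13180 rows were, and 45.7% were lower), with a median change of 4.54 for the 81 and -0.15 for all rows. In knockout embryos all 81 were higher as well (33.9% of rows, with 36.6% lower), with a median of 4.55 for the 81 and -0.02 for all rows. Gm4340 had 85.7, 79.8 and 76.6 FPKM in Early2c controls, against 0.439, 0.294 and 0.422 in Late1c controls (6.52 ± 0.09 SE). In both genotypes Gm8332 had the largest change of the 81, 6.954 ± 0.191 in knockout and 7.004 ± 0.191 in control embryos (SE). Levels were not those of the C57BL/6 series for every family. The Cdc5l-like Gm9048 had 48.1, 46.9 and 43.9 FPKM in BDF1 Early2c controls, and 7.73 and 8.14 in C57BL/6 E2-cell embryos, groups that differ in strain and collection together.

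At Early2c, more of the 81 genes were lower than higher in MT2Mm knockout embryos. Limma called 28 lower and 11 higher, where 15.6% of all 13180 rows were lower and 33.4% higher. The median change was -0.15 for the 81 and 0.11 for all rows. With columns scaled by the median of ratios, which brought the median of all rows to -0.01, 39 were lower and 7 higher. With a pseudocount of 0.1 FPKM in place of 0.5, 9 were lower and 6 higher. The summed level was 1458 to 1550 FPKM in knockout embryos and 1663 to 1747 in controls, but as a share of the table's summed FPKM the groups overlapped, at 0.329% to 0.342% in knockout embryos and 0.320% to 0.357% in controls. Of the 41 named 2-cell genes, 39 were tested, of which 10 were lower and 8 higher, with a median of -0.03. Zscan4d averaged 29.9 ± 2.74 FPKM in knockout and 46.2 ± 4.01 in control embryos (SD, n = 3 each; limma adjusted p = 0.00302).

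Other RNA differed between the same samples. The summed level of 14 oocyte and early embryo genes, such as Zp3 and Gdf9, all 14 at 1 FPKM or more, was 1040 to 1190 FPKM in knockout and 846 to 938 in control embryos. Of 14 cumulus and granulosa cell genes at most 1 reached 1 FPKM, with sums of 2.35 to 2.82 in knockout and 1.65 to 2.17 in control embryos and Inha at 0 in both. The 7 sperm and testis genes summed to 2.35 to 3.26 in knockout and 1.90 to 2.61 in control embryos, with 1 at 1 FPKM or more and Prm1, Acr, Tnp1, Tnp2 and Akap4 at 0. Their part in the results was not tested.

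The splicing and export families, 27 of the 81 genes, held 16 of the 28 that fell and 3 of the 11 that rose. Most of these are near-identical copies, so the counts are not counts of separate observations. All 6 Cwc22-like copies were lower, with a median of -0.67, as they were under each of 12 alternatives. Gm13694 had 40.5, 54.7 and 29.5 FPKM in knockout embryos, against 66.49, 66.98 and 59.96 in controls (-0.67 ± 0.17 SE, limma adjusted p = 0.00652). Gm13697 had 23.29, 31.06 and 16.96 FPKM in knockout embryos, against 39.69, 38.38 and 34.99 in controls (-0.69 ± 0.16 SE, limma adjusted p = 0.00385). In both genes the knockout samples spread more widely than the controls and did not overlap with them. The coding sequences of the 6 copies are 100% identical to one another, so the copies are 1 observation. Cwc22 averaged 13 ± 0.831 FPKM in knockout and 14.8 ± 0.762 in control embryos (SD, n = 3 each), a difference that also passed (-0.18 ± 0.06 SE, limma adjusted p = 0.0346).

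The Alyref-like copies parted by cluster. All 7 copies at chr10:104142987-104196522, the Gm4340 cluster, were lower, with a median of -0.26. Of the 6 copies at chr10:100335676-100382560, the Gm4301 cluster, 3 were higher and 0 lower, with a median of 0.29. Gm4340 had 71.1, 61.1 and 62.8 FPKM in knockout embryos, against 85.7, 79.8 and 76.6 in controls (-0.31 ± 0.09 SE, limma adjusted p = 0.0135). Gm4301, singled out after its values were seen, had 21.9, 16.8 and 17.3 FPKM in knockout embryos, against 11.8, 11.4 and 11.5 in controls (0.66 ± 0.10 SE, limma adjusted p = 1.84e-04). Neither gene's groups overlapped. The other 2 that rose were Gm4312 (0.47) and Gm4302 (0.40). With a pseudocount of 0.1 FPKM, 0 of the 7 and 1 of the 6 were called. The family's summed level overlapped between knockout (275 to 317 FPKM) and control embryos (305 to 323).

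Of the Eif1a-like genes 5 of 13 were lower and 0 higher. Gm4027 had 25.5, 22.2 and 20.9 FPKM in knockout embryos, against 33.1, 36.1 and 34.7 in controls, without overlap (-0.59 ± 0.10 SE, limma adjusted p = 3.69e-04). Gm8332, the highest of the family, had 101.6, 100.5 and 88.11 FPKM in knockout embryos, against 115.2, 117.4 and 104.3 in controls, lower without overlap, and did not pass (limma adjusted p = 0.380). Eif1a itself was higher, at 1.88 ± 0.452 FPKM in knockout and 1.21 ± 0.327 in control embryos (SD, n = 3 each; limma adjusted p = 0.0240). All 3 Tcstv-like genes were lower (-0.24 to -0.53), as were 3 of 4 Cdc5l-like genes (-0.19 to -0.23). With a pseudocount of 0.1 FPKM, 0 Tcstv-like and 0 Cdc5l-like genes were called. The Eif4a3-like Gm5580 (-0.23, limma adjusted p = 0.125) and Gm8994 (-0.15, limma adjusted p = 0.111) did not pass, while Eif4a3 was higher (0.36 ± 0.10 SE, limma adjusted p = 0.0133). Limma called 0 of the 5 Tdpoz-like genes, which changed by 0.06 to 0.17, and 1 of them, Gm4778, had an unadjusted p under 0.05.

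The largest fall of the 81 was that of B020004J07Rik. It had 6.79, 7.45 and 6.81 FPKM in knockout embryos, against 15.2, 16.0 and 16.5 in controls (-1.12 ± 0.08 SE, limma adjusted p = 9.54e-07). Every knockout sample lay far below every control. Its neighbours Gm12789 and Gm12800 on chromosome 4 were lower too. Gm12789 had 13.4, 13.1 and 14.7 FPKM in knockout embryos, against 17.9, 23.0 and 21.3 in controls (-0.57 ± 0.09 SE, limma adjusted p = 3.04e-04). Gm12800 had 11.46, 14.17 and 13.33 FPKM in knockout embryos, against 16.43, 16.85 and 18.58 in controls (-0.40 ± 0.11 SE, limma adjusted p = 0.0105). Gm12794, which lies between these genes, was not called. It averaged 18.2 FPKM in knockout and 19.4 in control embryos, and the samples overlapped. Of the 20 Pramel-related genes, 4 were lower and 2, Gm13119 and Gm13078, higher.

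The chromosome 1 genes were the ones most raised. Gm8947 had 12.98, 13.99 and 13.54 FPKM in knockout embryos, against 6.55, 9.23 and 6.01 in controls (0.87 ± 0.16 SE, limma adjusted p = 7.04e-04). Gm47996 had 17.2, 17.6 and 16.9 FPKM in knockout embryos, against 8.58, 11.3 and 8.28 in controls (0.85 ± 0.14 SE, limma adjusted p = 4.51e-04). All 4 were higher without overlap, with a median of 0.84, as they were under each of 12 alternatives. They are near-identical copies and not separate observations. Their relative on chromosome 4, Gm11232, did not pass (-0.23, limma adjusted p = 0.168). Duxf3 was higher in the same embryos, at 6.71 ± 1.42 FPKM in knockout and 3.70 ± 0.449 in control embryos (SD, n = 3 each; 0.77 ± 0.14 SE, limma adjusted p = 7.78e-04). Of the 12 genes with no named relative, 6 were higher and 0 lower, where 33.4% of all rows were higher and 15.6% lower. The 6 were the chromosome 1 genes and 2 near-identical genes of the Gm4513 family, so these are not separate observations.

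The genes that share the stretch in front of Gm4340 can be set side by side in this comparison, as a description. The Eif1a-like Gm4027, whose promoter was searched and does not hold it, was lower too, and whether the stretch has a part in the changes was not tested. Of the 9 among the 81, 8 were lower, with a median of -0.27, and the other was Gm8994. Among 10 further genes of the table that hold it, 5 were lower and 2 higher (Sgk1 at 0.33 and Sp110 at 0.42), with a median of -0.40. At 90% identity or more, 11 of 11 genes tested were lower, of which 6 are near-identical copies of the Gm4340 cluster and not separate observations. With a pseudocount of 0.1 FPKM 0 of that cluster were called. The other 5 are not among the 81: Gm35974 (-1.41), Gm12724 (-1.08), Gm33248 (-0.98), Gm12790 (-0.68) and Pemt (-0.60). Below 90% identity, B020004J07Rik (87.9%, -1.12) and Gm12789 (75.1%, -0.57) were lower too, so the falls were not confined to the closest matches. The genes set side by side here were singled out after their values were seen.

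**Figure D4:**
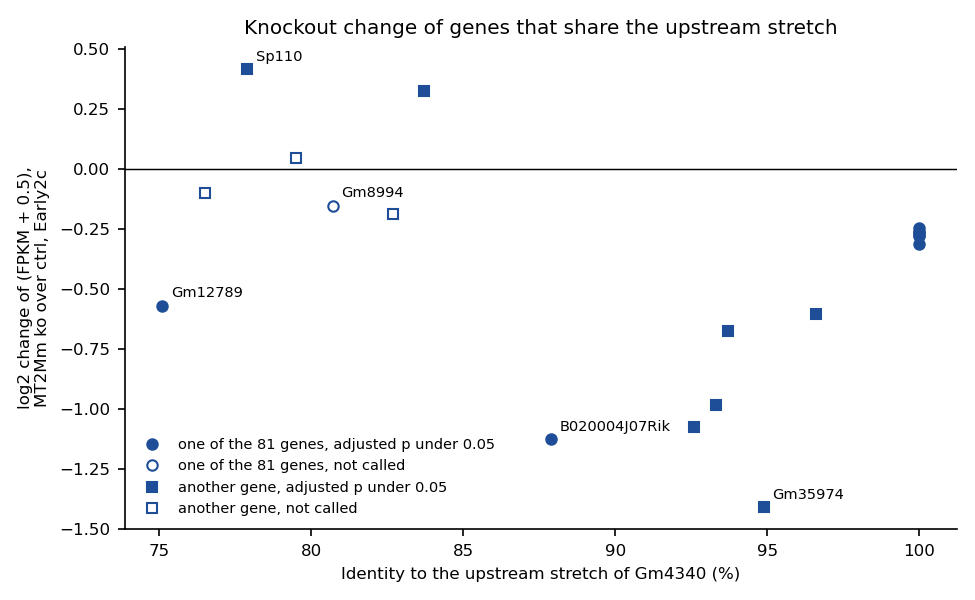
Identity (%) to the stretch in front of Gm4340 on the horizontal axis and log2 change in MT2Mm knockout over control embryos at Early2c on the vertical axis, with 1 point per gene tested that holds the stretch (circles, among the 81; squares, other genes; filled, called). At 90% identity or more all 11 genes were called lower, among them the near-identical copies of the Gm4340 cluster. At lower identity B020004J07Rik (87.9%, -1.12) and Gm12789 (75.1%, -0.57) were called lower, and Sgk1 (0.33) and Sp110 (0.42) higher. The other genes at lower identity were not called. The genes were singled out after their values were seen.

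At Late1c nearly all of the 81 genes lay under 1 FPKM in knockout and control embryos. The pseudocount of 0.5 FPKM shrinks the changes of such genes, so the test could miss differences. Limma called 3 lower and 0 higher (0.0683% and 0.0455% of 13180 rows), and 20 had an unadjusted p under 0.05. The 3 were Cdc5l-like copies with nearly identical sequence. Gm9048 had 0.258, 0.273 and 0.231 FPKM in knockout embryos, against 0.4999, 0.6096 and 0.5352 in controls (-0.47 ± 0.07 SE, limma adjusted p = 0.0403), without overlap. With each sample left out in turn 0 genes were called, and 7 with a pseudocount of 0.1 FPKM. The summed level of the 81 was 14 to 15.17 FPKM in knockout and 21.75 to 22.75 in control embryos, without overlap. As a share of the table's summed FPKM it averaged 0.00441% in knockout and 0.00642% in control embryos. Gm4340 had 0.233, 0.118 and 0.160 FPKM in knockout embryos, against 0.439, 0.294 and 0.422 in controls, and did not pass (-0.40 ± 0.09 SE, limma adjusted p = 0.187).

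Whether the knockout effect differed between the stages was tested as an interaction, the change at Early2c minus that at Late1c. It was higher for 14 and lower for 5 of the 81 (25.7% and 11.6% of rows), and 6 were higher and 11 lower with scaled columns. The count was 7 without the filter on low values and 12 without Early2c control replicate 3, without Late1c knockout replicate 2 or without Late1c knockout replicate 3. The lowest was B020004J07Rik (-1.08 ± 0.12 SE, limma adjusted p = 4.04e-05), which at Late1c was at 0.0517 to 0.102 FPKM in knockout and 0.0441 to 0.142 in control embryos. Levels this far under the pseudocount of 0.5 FPKM keep a Late1c change near 0, so for such genes the interaction largely repeats the Early2c change and says little of a difference between stages. The highest were the chromosome 1 genes, such as Gm8947 (1.16 ± 0.22 SE, limma adjusted p = 0.00170).

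In LncR-3363 knockdown embryos, 4 genes were higher and 16 lower in KD-1cell than in Ctrl samples (29.8% and 13.9% of 11492 rows, 43.7% in all), of 80 tested. Gm7978 was under the filter. The median change was -0.26 for the 80 and 0.12 for all rows. With scaled columns, which brought the median of all rows to 0.01, 3 were higher and 28 lower. Without the filter on low values 5 were called, 2 higher and 3 lower, and without Ctrl replicate 2 there were 13. The summed level overlapped, at 770 to 1124 FPKM in KD-1cell and 882 to 1290 in Ctrl samples, and was 765 in the KD-2cell sample. The 14 oocyte and early embryo genes summed to 1220 to 1500 FPKM in KD-1cell, 1040 in KD-2cell and 951 to 1040 in Ctrl samples. The cumulus and granulosa cell genes summed to 2.02 to 2.88 in KD-1cell and 1.67 to 2.75 in Ctrl samples, and sperm and testis genes to 2.58 to 7.72 in KD-1cell and 1.81 to 3.65 in Ctrl samples, with 1 of each list at 1 FPKM or more and Prm1, Acr, Tnp1 and Tnp2 at 0. Their part in the results was not tested.

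The Cwc22-like copies were lower here as well, 6 of 6, with a median of -0.47. Gm13694 had 41.5, 41.4, 47.1 and 34.0 FPKM in KD-1cell, 34.2 in the KD-2cell sample, and 52.9, 68.9, 46.5 and 60.5 in Ctrl samples (-0.47 ± 0.13 SE for KD-1cell, limma adjusted p = 0.0165). The KD-1cell and Ctrl values met at 47.1 and 46.5. Without the filter on low values 0 of the 6 passed, and 5 without Ctrl replicate 2 or Ctrl replicate 4. Cwc22 did not pass (-0.10, limma adjusted p = 0.249). Of the Gm4340 cluster limma called 0 of 7, and 0 had an unadjusted p under 0.05, with a median of 0.10, or -0.03 with scaled columns and -0.08 without Ctrl replicate 3. Gm4340 had 66.3, 54.1, 58.0 and 45.9 FPKM in KD-1cell, 37.0 in KD-2cell, and 53.1, 63.9, 36.0 and 57.5 in Ctrl samples, which overlap widely (limma adjusted p = 0.634).

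The chromosome 1 genes were higher, 4 of 4, with a median of 0.68, where 29.8% of all rows were higher. They are near-identical copies and not separate observations. Gm47995 had 14.2, 15.2, 16.5 and 13.7 FPKM in KD-1cell, 9.92 in KD-2cell, and 7.30, 7.37, 6.12 and 10.5 in Ctrl samples (0.91 ± 0.14 SE, limma adjusted p = 7.07e-04), and its KD-1cell and Ctrl samples did not overlap. Gm8947 had 13.96, 15.81, 17.74 and 11.65 FPKM in KD-1cell, 9.32 in KD-2cell, and 6.17, 8.08, 6.64 and 13.5 in Ctrl samples, where Ctrl replicate 4 reached into the KD-1cell range (0.80 ± 0.22 SE, limma adjusted p = 0.0171). Over the alternatives 2 to 4 of the 4 passed. Duxf3 averaged 15.4 ± 3.84 FPKM in KD-1cell (SD, n = 4), 8.91 in KD-2cell and 6.36 ± 1.63 in Ctrl samples (SD, n = 4), and was higher in KD-1cell (1.21 ± 0.21 SE, limma adjusted p = 0.00142).

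Among the other genes lower in KD-1cell, Gm12789 had 9.83, 11.9, 9.03 and 7.22 FPKM, against 13.5, 15.0, 12.5 and 15.6 in Ctrl samples, without overlap (-0.57 ± 0.14 SE, limma adjusted p = 0.00859), and it passed under all 14 alternatives. The largest fall was that of the Eif1a-like Gm21936, with 15.3, 8.48, 7.35 and 7.20 FPKM in KD-1cell and 17.4, 18.5, 18.4 and 13.1 in Ctrl samples (-0.84 ± 0.22 SE, limma adjusted p = 0.0130). KD-1cell replicate 1 lay within the Ctrl range. It was the only Eif1a-like gene of 13 called. The Eif4a3-like Gm5580 had 25.8, 25.2, 18.7 and 23.6 FPKM in KD-1cell and 32.8, 35.3, 29.0 and 32.9 in Ctrl samples, without overlap (-0.48 ± 0.11 SE, limma adjusted p = 0.00530), while Eif4a3 was higher (0.30 ± 0.08 SE, limma adjusted p = 0.0109). B020004J07Rik had 6.61, 5.86, 4.27 and 4.12 FPKM in KD-1cell, 4.60 in KD-2cell, and 4.70, 7.92, 6.44 and 6.97 in Ctrl samples, and did not pass (limma adjusted p = 0.213). Of the 41 named 2-cell genes 38 were tested, of which 7 were higher and 2 lower, where 29.8% of all rows were higher and 13.9% lower.

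**Figure D5:**
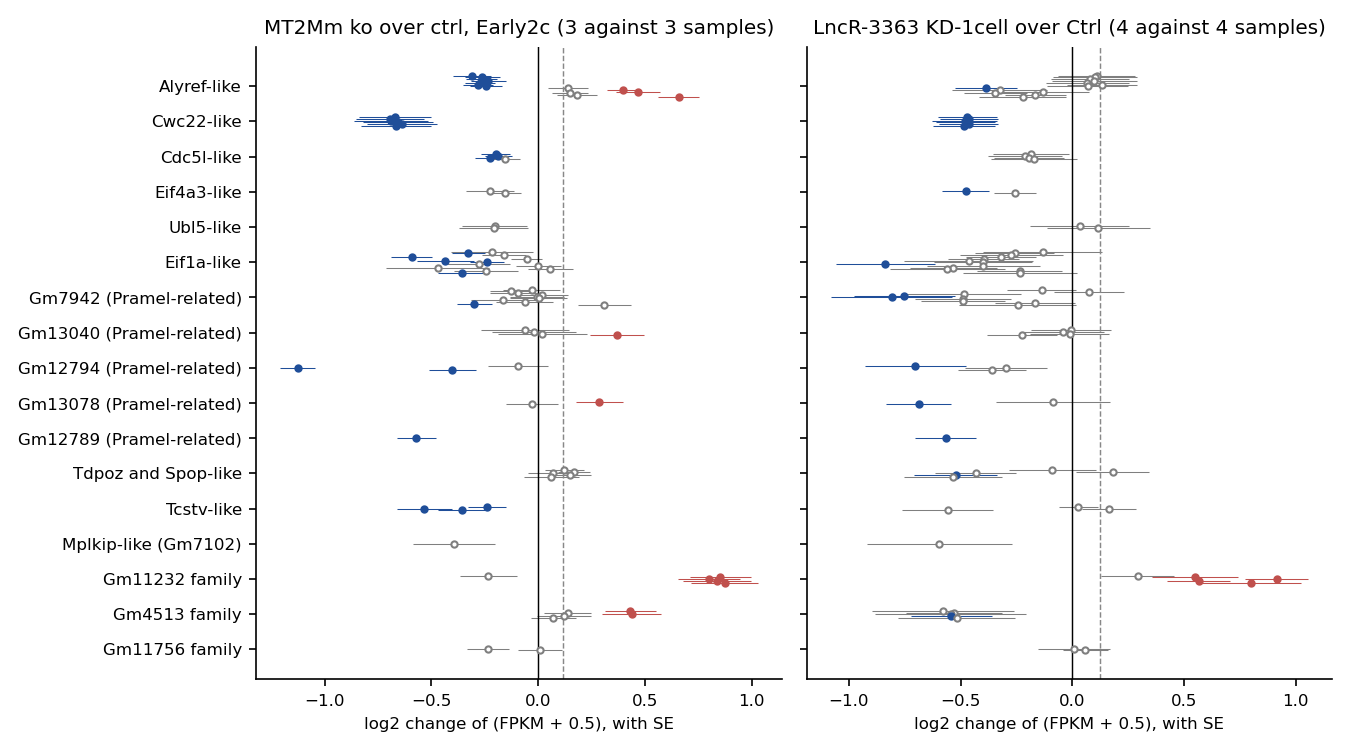
Log2 change with its SE for members of each family, in MT2Mm knockout over control embryos at Early2c and in LncR-3363 KD-1cell over Ctrl samples, with filled points for genes called and open points for the others, and a dashed line at the median of all rows. The Cwc22-like copies have medians of -0.67 in the knockout and -0.47 in the knockdown, and the chromosome 1 genes medians of 0.84 and 0.68.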

How the data were processed

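Expression values are FPKM per gene and column, deposited by the authors; depth is therefore unknown, and column sums ran from 311500 to 720800 FPKM. Per the submitters' processing notes, cutadapt 1.18, HISAT2 2.1.0, Cufflinks, StringTie 1.3.4d, Cuffdiff 2.2.1 and GRCm38 were used, and per the labels' protocols reads were 150-base pairs from 150 to 200 embryos; the labels name 2 stranded total RNA kits without saying which samples each served. Some stages have 4 samples but 2 columns. The LncR-3363 columns carry another short name and were assigned by their control and knockdown words.

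The 81 genes, the gene lists and the tests were chosen with earlier results of these data known. limma 3.58.1 (R 4.3.3; trend, log2 of FPKM plus 0.5, a row needed 1 FPKM in a number of samples equal to the smallest group) was run on all rows and checked on simulated data. Fits covered the stages from L2-cell on, the 3 times, the knockdown groups, and the 4 MT2Mm groups. Families join coding sequences at 70% identity over 50% of the length, and named relatives at 65% over 60% (BLAST+ 2.17.0). Named in the text are the 8 genes highest in the E2-cell, Gm4340 and B020004J07Rik, the 4 most changed called genes per direction and comparison (not all of them printed), the highest gene of each later stage and the threshold neighbours; others were chosen after their values were seen. Same-numbered samples did not clearly deviate together (residual correlations of -0.138 to 0.153 over 40 pairs), so no fit given above uses a block. Between groups of 2 samples both pairs give the same value, so the 40 are not all separate. Alternatives were another pseudocount, no filter, scaled columns, the contrast's samples alone, all 8 stages in the fit, a replicate block and each sample left out.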

Additional observations from a re-analysis of the deposited data

Results flagged for a closer look

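In groups of 4, a sample was marked when its gap to the nearest other sample exceeded, as a share of the group's range, Dixon's critical value for 4 samples. Of 78 sets of 4 values, from 38 named genes and the summed level of the 81, 4 were marked, where chance marks about 1 in 20. All 4 were in KD-1cell samples: Gm21936, whose highest sample had 15.3 FPKM; Gm4778, whose highest had 11.5; Gm12800, whose lowest had 5.24; and Gm47985, whose lowest had 10.7.

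The knockout effect at Early2c minus that at Late1c passed limma's adjusted threshold for 13 named genes. It was negative for B020004J07Rik (-1.08), Gm12789 (-0.54), Gm12800 (-0.48) and Gm21761 (-0.46) on the log2 scale. It was positive for the chromosome 1 genes Gm8947 (1.16), Gm47995 (1.15), Gm47996 (1.07) and Gm47985 (0.83), for Gm13119 (0.60) and Gm4513 (0.52), and for the Cdc5l-like Gm9046 (0.30), Gm9048 (0.27) and Gm9049 (0.26), which were lower in knockout embryos at both stages. Where a gene lay far under the pseudocount of 0.5 FPKM at Late1c, as B020004J07Rik did, this value largely repeats its Early2c change.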

How the results depend on the processing

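The number of the 81 genes called stayed within 1.5 times of the value given above in 108 of 141 alternatives over 12 comparisons. That includes the step from Late1c to Early2c, where the choice of the genes held the count at 81. The number adds both directions, so it does not show a shift between them, as in the interaction with scaled columns. Of 755 alternatives for 62 pairs of a named gene and a comparison, 651 kept direction and call, 104 lost the call and 0 changed direction. These pairs include the step from Late1c to Early2c as well. The cause of these losses was not tested. No filter on low values gave 20 calls from the 8-cell to the morula, 3 from 14 to 17 hours, 25 from 17 to 20 hours, 5 in the knockdown and 7 in the interaction. The samples of the contrast alone gave 11 from the 8-cell to the morula and 32 from the morula to the blastocyst. Scaled columns gave 31 in the knockdown. At Late1c the knockout gave 7 calls with a pseudocount of 0.1 FPKM, and 0 with a pseudocount of 1, without the filter, with scaled columns, with a replicate block and with the contrast's samples alone. At Early2c a pseudocount of 0.1 FPKM gave 15. Leaving out 1 sample gave 40 to 44 calls from the L2-cell to the 4-cell, 37 to 53 to the 8-cell, 13 to 50 to the morula, 12 to 15 to the blastocyst (12 without Morula replicate 2), 2 to 4 from 14 to 17 hours, 4 to 5 from 17 to 20 hours, 13 to 27 in the knockdown, 0 to 0 in the knockout at Late1c, 29 to 35 at Early2c, and 12 to 23 in the interaction. The step from Late1c to Early2c kept 81 calls in both genotypes throughout. The genes were chosen for a rise at this stage, so nothing is read from that count.

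With the replicate number as a block, 38 genes were called in the knockout at Early2c, 23 in the knockdown, 7 and 6 at the 2 time steps, 17 in the interaction, and, leaving out the 4-cell, whose columns are numbered otherwise, 26 from the 8-cell to the morula and 16 to the blastocyst. The level rule itself took in 76 to 83 genes with 1 of its 6 columns left out, 80 with scaled columns (79 shared), 97 and 77 with an E2-cell limit of 2 and 5 FPKM, and 69 with a limit of 0.5 FPKM in MII oocytes and zygotes, settings chosen after seeing the data. Without depths, counting error at low FPKM could not be given.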
